A study of Mus musculus with 3 samples.

Results

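MicroRNA genes were examined in the thymocytes of 3 wild-type (wt) mice, numbered 92, 103 and 106 in the labels. Thymocytes are the developing T cells of the thymus. A gene was a member when its probe set carried a single symbol of a microRNA gene in the platform annotation and was not a host transcript. By this rule 296 of 19938 named genes were microRNA genes, of which 295 had 1 probe set. Each mouse gave 1 Affymetrix mouse gene (MoGene) array, hybridised with biotin-labelled target made from Trizol-extracted total RNA. The mice had a background mixed from FVB and C57BL6, and carried the wt genotype. They are the normal controls of a study of mouse lymphomas, and the tumours were not analysed here. For every sample the labels state 0.3 µg of input and a RIN (a score of RNA integrity) of 3, and they enter T cell lymphoma under disease state although title and genotype read wt. Age, sex and any cell sorting are not stated in the sources used here.

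All 9 thymocyte markers examined, among them Cd3e, Cd4, Cd8a and Rag1, were above background in each mouse, against 61.8% of all named genes. Also above background were 5 of 5 B cell, 6 of 7 macrophage, 6 of 8 neutrophil and 3 of 4 erythroid markers. The median level was 12.10 for the thymocyte markers, and 7.43, 7.40, 7.76 and 6.93 for these others in that order. Background was set by 1207 genes of odorant and pheromone receptors (Olfr, Vmn1r, Vmn2r and Taar), which work in the nose. A gene passed, or was above background, when it lay over their 95th percentile in all 3 mice. This threshold ran from 5.91 in mouse 92 to 6.10 in mouse 103 (log2 values). Xist was at 5.30, 11.85 and 11.67 and the Y-linked Eif2s3y at 10.42, 3.59 and 3.55 in the same order, so that mouse 92 differed in sex from the others. Markers of neutrophils, B cells, erythroid cells and macrophages also had their lowest mean in mouse 92. The mean of 8 neutrophil markers, for example, was 6.41 in mouse 92, 8.41 in mouse 103 and 8.05 in mouse 106.

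MicroRNAs are short RNAs that guide Argonaute proteins to messenger RNAs and lower their translation or stability. A long primary transcript is cut by Drosha and Dgcr8 to a hairpin, which Xpo5 carries to the cytoplasm. There Dicer1 cuts it to the mature strand, whose seed (bases 2 to 8) chooses the targets. In the thymus, miR-181 tunes the sensitivity of T cell receptor signalling, miR-142 marks all blood lineages, miR-150 and miR-155 act in lymphocytes, and the miR-17-92 cluster promotes proliferation. For 293 of the 296 genes the annotation listed 1 RefSeq hairpin accession and nothing else. Whether the signal came from the primary transcript, the hairpin or the mature strand was not tested.

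Mature strands of genes on the lymphoid list are printed here from RefSeq (GRCm38.p6), 5′ to 3′, with the seed in capitals, including that of Mir146, the gene of the list that was not above background. The 4 miR-181 strands share the seed ACAUUCA and come from 3 gene pairs.
miR-181a-5p (Mir181a-1, chr1:137966468-137966490, plus strand): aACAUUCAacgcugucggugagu
miR-181b-5p (Mir181b-1, chr1:137966650-137966673, plus strand): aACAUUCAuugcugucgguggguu
miR-181c-5p (Mir181c, chr8:84178924-84178945, minus strand): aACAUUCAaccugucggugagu
miR-181d-5p (Mir181d, chr8:84178759-84178781, minus strand): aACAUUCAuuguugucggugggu
miR-142a-3p (Mir142, chr11:87756903-87756925, plus strand): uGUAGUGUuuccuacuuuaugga
miR-155-5p (Mir155, chr16:84714143-84714165, plus strand): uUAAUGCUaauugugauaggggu
miR-342-3p (Mir342, chr12:108658680-108658702, plus strand): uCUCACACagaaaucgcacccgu
miR-146a-5p (Mir146, chr11:43374435-43374456, minus strand): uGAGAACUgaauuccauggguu

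The miR-15, miR-16 and miR-17-92 strands are shown because their genes lie in clusters that were above background in different shares. The miR-15 and miR-16 strands share the seed AGCAGCA. The seeds of miR-17 and miR-106b are the same, while miR-25, miR-19b and miR-18a have others.
miR-15a-5p (Mir15a, chr14:61632075-61632096, minus strand): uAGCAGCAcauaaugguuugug
miR-15b-5p (Mir15b, chr3:69009775-69009796, plus strand): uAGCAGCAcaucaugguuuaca
miR-16-5p (Mir16-2, chr3:69009918-69009939, plus strand): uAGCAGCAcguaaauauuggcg
miR-17-5p (Mir17, chr14:115043684-115043706, plus strand): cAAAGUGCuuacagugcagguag
miR-106b-5p (Mir106b, chr5:138165787-138165807, minus strand): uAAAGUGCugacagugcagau
miR-25-3p (Mir25, chr5:138165332-138165353, minus strand): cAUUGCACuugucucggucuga
miR-19b-3p (Mir19b-1, chr14:115044358-115044380, plus strand): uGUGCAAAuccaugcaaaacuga
miR-18a-5p (Mir18, chr14:115043867-115043889, plus strand): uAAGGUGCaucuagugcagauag

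Most microRNA genes were not above background. Of the 296 genes, 110 passed on all 3 arrays, 37.2%, against 61.8% of the 19938 named genes. A further 14 passed on 1 or 2 arrays, and 172 on none. Their mean levels ran from 2.34 to 10.97 on the log2 scale with a median of 5.29, where the median over all named genes was 6.77. The lowest were Mir297-1 at 2.34 ± 0.06, Mir466 at 2.37 ± 0.06 and Mir190a at 2.47 ± 0.08 (SD, n = 3). With the 99th percentile of the receptor genes as threshold, 62 microRNA genes passed, and 46.8% of named genes.

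Of the 11 measured genes on the lymphoid and pan-haematopoietic list, 10 were above background in each mouse, and the list's median level was 7.83. Mir181b-1 had the highest level of all 296 microRNA genes, at 11.01, 10.68 and 11.23 on the log2 scale in mice 92, 103 and 106 (mean 10.97 ± 0.28, SD, n = 3). Its neighbour Mir181a-1 was at 8.25, 8.48 and 8.40. Both lay far above the threshold in every mouse, although probe sets differ in affinity and the levels do not rank the genes.

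The other miR-181 genes were also above background. Mir181d was at 8.40 ± 0.18 and Mir181c at 7.83 ± 0.10, while the second pair, Mir181a-2 and Mir181b-2, read 6.47 ± 0.04 and 6.76 ± 0.19 (SD, n = 3). All 6 miR-181 genes, which lie at 3 separate loci, therefore passed. With the 99th percentile of the receptor genes as threshold, Mir181a-2 and Mir181b-2 did not. The mature strand of Mir181a-2 is identical to that of Mir181a-1, and that of Mir181b-2 to that of Mir181b-1. If their signal came from the mature strand, it could not be assigned to either locus.

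Mir142, which is transcribed throughout the blood system, was at 9.10, 8.59 and 9.89 in mice 92, 103 and 106. Its mean was 9.19 ± 0.65 (SD, n = 3), and its range between mice was 2.45-fold, the widest of any microRNA gene above background. Mir150, a regulator of Myb in lymphocytes, was at 7.94, 8.36 and 8.24. Mir342, which lies inside Evl on the same strand, was at 7.20, 7.62 and 7.81.

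Mir155, induced when lymphocytes are activated, was closer to the threshold, at 6.14, 6.50 and 6.37. Mir146, the gene of miR-146a, was the exception on the list, at 2.66, 2.75 and 2.86. MiR-146a restrains NF-κB signalling and is known from regulatory and activated T cells.

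**Figure D1:**
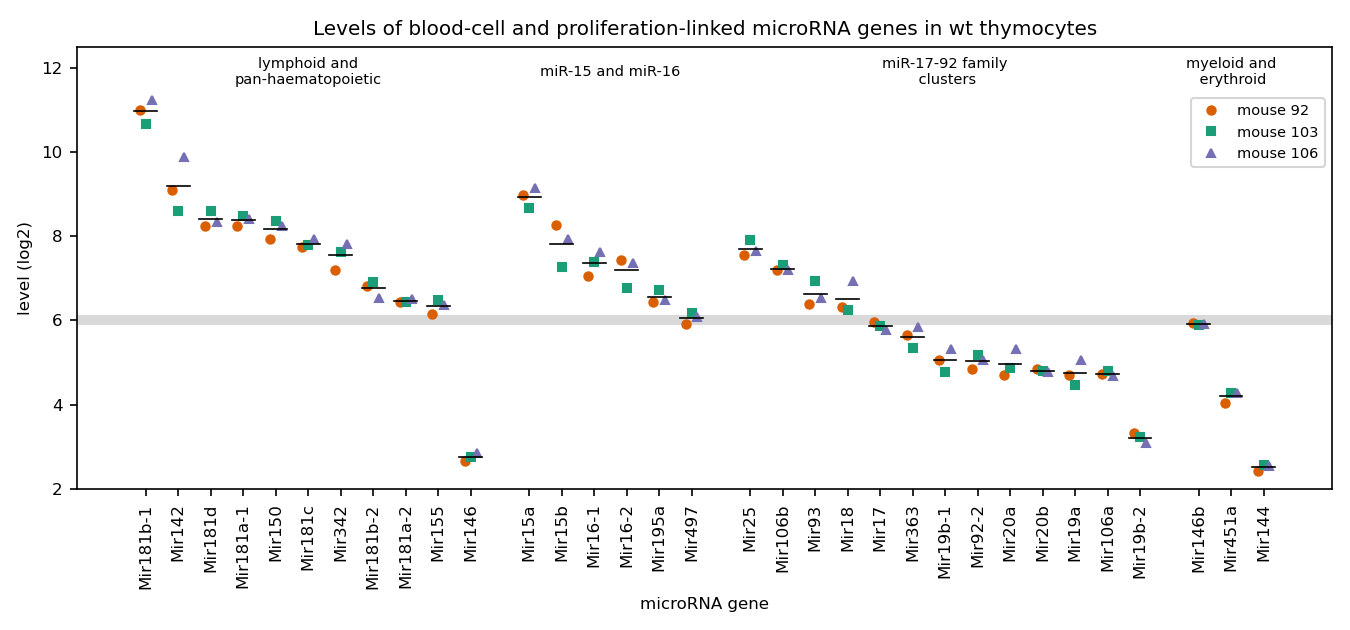
Log2 level of each gene of 4 lists in mice 92, 103 and 106, with the mean of the 3 as a bar and the range of the 3 background thresholds in grey. On the lymphoid list 10 of 11 genes lie above the grey band in every mouse and Mir146 lies far below it. None of the 3 measured genes of the myeloid and erythroid list passes on all 3 arrays.

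The miR-15 and miR-16 genes restrain Bcl2 and cell cycle genes. All 6 measured genes of this list passed, with a median level of 7.28. Mir15a was at 8.99, 8.68 and 9.16 in mice 92, 103 and 106, Mir15b at 8.27, 7.27 and 7.93, and Mir16-2 at 7.44, 6.78 and 7.37. Each of these 3 genes was lowest in mouse 103. Mir16-1, in contrast, was at 7.05, 7.40 and 7.62, lowest in mouse 92. Mir195a read 6.56 ± 0.16 and Mir497 6.06 ± 0.13 (SD, n = 3), the latter only just above the threshold.

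Of the 13 measured genes of the miR-17-92 family, 4 passed. The 3 genes inside Mcm7, which encodes a subunit of the replicative helicase, all passed. Mir25 was at 7.56, 7.91 and 7.65, Mir106b at 7.19, 7.31 and 7.19, and Mir93 at 6.40, 6.93 and 6.53 in mice 92, 103 and 106. In the Mir17 cluster, only Mir18 of 5 measured genes passed, at 6.31, 6.24 and 6.95.

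The other genes of the Mir17 cluster were Mir17 at 5.87 ± 0.10, Mir19b-1 at 5.06 ± 0.27, Mir20a at 4.96 ± 0.31 and Mir19a at 4.75 ± 0.30 (SD, n = 3). Their primary transcript has a probe set of its own, Mir17hg, which was above background in each mouse at 7.20, 6.84 and 6.98. None of the 5 genes of the X-linked paralogous cluster passed: Mir363 read 5.61 ± 0.26, Mir92-2 5.03 ± 0.17, Mir20b 4.80 ± 0.04, Mir106a 4.74 ± 0.05 and Mir19b-2 3.22 ± 0.11. Hairpin G and C moved with these counts: it ran from 55.7% to 63.1% in the Mcm7 cluster, from 43.7% to 45.8% in the Mir17 cluster and from 38.1% to 47.3% in the X-linked cluster. Its part in the calls was not tested. Within the Mir17 cluster, probe sets of the same primary transcript gave different calls.

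The let-7 genes, which promote differentiation and repress growth genes such as Lin28, passed in 2 of 10 cases, Mirlet7i at 7.72 ± 0.14 and Mirlet7e at 6.60 ± 0.21 (SD, n = 3). Mirlet7f-1 was at 6.58, 5.71 and 6.36 and Mirlet7d at 6.34, 5.83 and 6.42 in mice 92, 103 and 106. These neighbours missed the call only in mouse 103.

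Genes of the myeloid and erythroid list passed in 0 of 3 cases. The list has 5 genes, of which only these 3 were measured, and Mir223 was not among the measured microRNA genes. Mir451a, which is processed by Ago2 without Dicer1 and accumulates in red cell precursors, was at 4.04, 4.28 and 4.29. Its cluster partner Mir144 was at 2.42, 2.57 and 2.55, and Mir146b at 5.94, 5.90 and 5.93. The erythroid enzyme gene Alas2 was at 8.18, 10.14 and 10.03 on the same arrays. Of 4 erythroid markers 3 were above background in each mouse and Klf1 was not in any. In such bulk samples, fewer cells of a type and less RNA per cell cannot be told apart.

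MicroRNA genes known from other tissues passed in 26 of 94 cases, 27.7%, with a median level of 4.53. The share was 37.2% over all 296 microRNA genes, 39% over those on no list and 61.8% over all named genes. Striated muscle genes passed in 0 of 7 cases, from Mir1a-2 at 2.49 ± 0.09 to Mir499 at 4.53 ± 0.12 (SD, n = 3). The pluripotent stem cell list passed in 0 of 5 cases, the retina and other sensory list in 1 of 5 (Mir211, 6.94 ± 0.08), and the endothelial and mesenchymal list in 2 of 6 (Mir199a-1 7.69 ± 0.19, Mir143 6.36 ± 0.12).

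Other lists held several genes above background. The brain list passed in 8 of 16 cases, 50%, above the 37.2% of all microRNA genes. It was led by Mir383 at 8.84 ± 0.06, Mir212 at 7.89 ± 0.20 and Mir219a-1 at 7.83 ± 0.12. On the list of liver, gut, pancreas and epithelium 4 of 16 passed, with Mir194-2 at 8.70 ± 0.30, Mir194-1 at 7.49 ± 0.08 and Mir375 at 6.93 ± 0.08 (SD, n = 3). The imprinted Dlk1-Dio3 locus, best known from embryo and brain, passed in 11 of 39 cases. Its leading genes were Mir341 at 9.04 ± 0.08, Mir667 at 8.63 ± 0.06 and Mir666 at 8.09 ± 0.12.

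**Figure D2:**
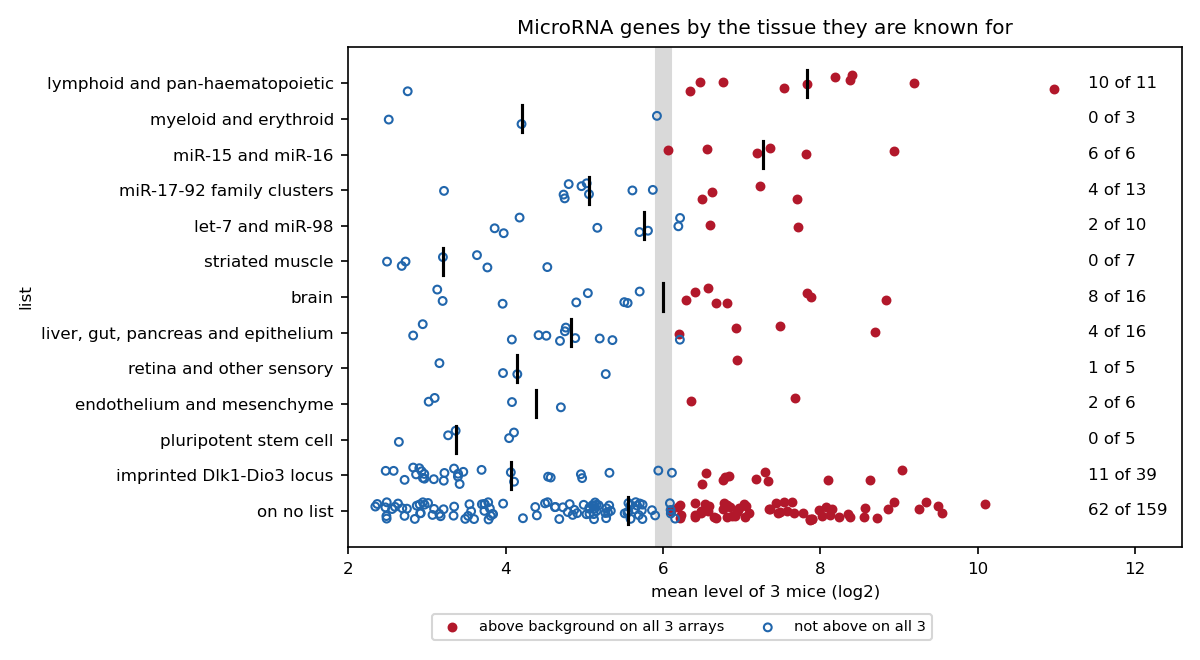
Mean log2 level over 3 mice of each of the 296 microRNA genes, by the list it stands on, with the list's median as a black bar and the range of the 3 thresholds in grey. Filled points passed on all 3 arrays. The numbers at the right give how many did, 10 of 11 for the lymphoid list and 0 of 7 for striated muscle.

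Base composition moved with the level. The RefSeq table held a hairpin for 258 of the 296 genes, and across these genes the share of G and C bases in the hairpin and the mean level had a Pearson's r of 0.67 and a Spearman's rho of 0.68. This is a correlation across genes that share the same 3 arrays. Probe sequences were not analysed here. Of 36 genes with under 40% G and C, 3 passed (8.3%), of 115 genes with 40 to under 50%, 19 passed (16.5%), of 81 with 50 to under 60%, 42 passed (51.9%), and of 26 with at least 60%, 25 passed (96.2%). The single gene of the last class that did not pass was Mir26a-1, at 5.67 ± 0.31 (SD, n = 3).

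The hairpins of 2 lymphoid genes are shown beside 1 hairpin poorer and 1 richer in G and C, with the annotated mature strands in capitals. Mir302b (chr3:127545228-127545301, plus strand), a stem cell gene with 39.2% G and C, read 3.27 ± 0.21. Mir142 (chr11:87756864-87756927, plus strand) has 42.2% and Mir181b-1 (chr1:137966639-137966718, plus strand) 45.0%. Mir346 (chr14:34894609-34894706, plus strand) has 65.3% and read 9.55 ± 0.08 (SD, n = 3).
Mir302b: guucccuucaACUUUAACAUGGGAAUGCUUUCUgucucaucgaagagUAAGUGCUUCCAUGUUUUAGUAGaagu
Mir142: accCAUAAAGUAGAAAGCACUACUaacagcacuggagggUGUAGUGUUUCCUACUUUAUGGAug
Mir181b-1: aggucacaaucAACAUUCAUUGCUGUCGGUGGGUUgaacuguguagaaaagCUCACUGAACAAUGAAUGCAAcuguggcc
Mir346: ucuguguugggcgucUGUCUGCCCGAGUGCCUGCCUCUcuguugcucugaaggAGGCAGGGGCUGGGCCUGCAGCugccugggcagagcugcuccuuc

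The lymphoid genes and those of other tissues were also set side by side within classes of composition. Between 40 and under 50%, 6 of 7 lymphoid genes passed, all but Mir146, against 2 of 38 genes of other tissues, Mir129-1 and Mir679. The medians were 6.76 and 3.55. With the 99th percentile as threshold the counts were 3 and 0. The 6 lymphoid genes that passed were Mir142, Mir155, Mir181a-1, Mir181a-2, Mir181b-1 and Mir181b-2. Most of them are thus miR-181 genes with a shared seed, not separate families. Many of the 38 genes of other tissues, Mir679 among them, likewise come from the imprinted Dlk1-Dio3 locus, not from separate loci. In the class of 50 to under 60% both lymphoid genes and 12 of 26 genes of other tissues passed. From 60% upward, 8 of 8 genes of other tissues passed. Of the leading genes named above, Mir341, Mir667, Mir219a-1, Mir212 and Mir375, with 59.4%, 62.0%, 69.1%, 69.2% and 67.2%, lie in or beside this range. Mir194-2, with 60.5%, does too. Mir194-1 with 50.7%, Mir199a-1 with 52.9% and Mir211 with 57.5% lie further below it. For Mir383, Mir666 and Mir143 the RefSeq table held no hairpin. The part of base composition in their levels was not tested.

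**Figure D3:**
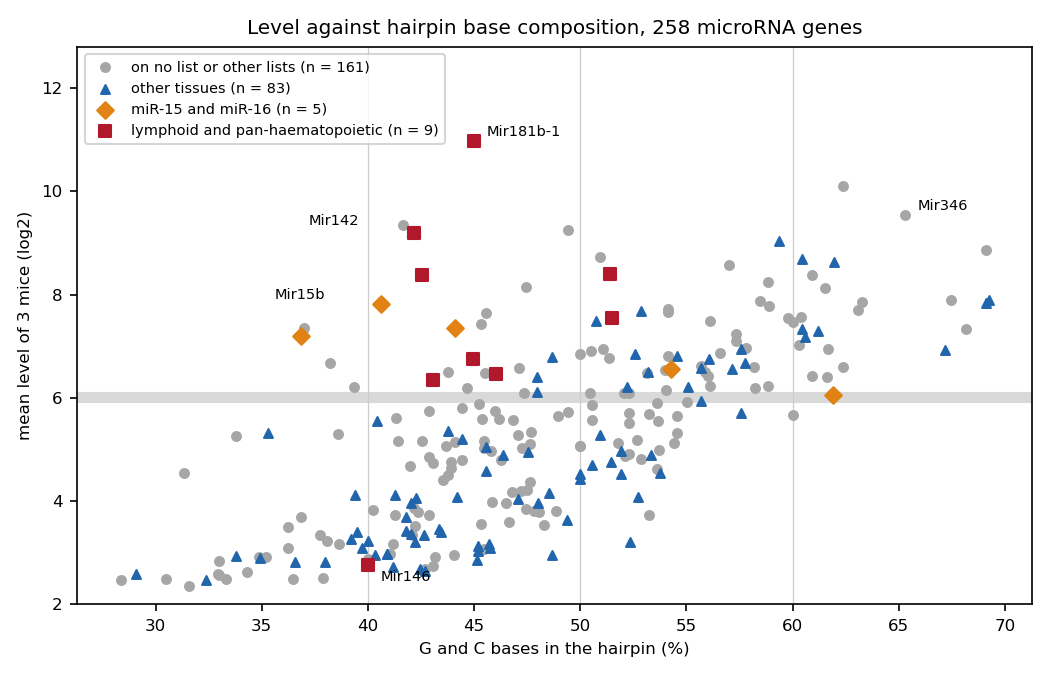
Mean log2 level over 3 mice against the share of G and C bases in the hairpin for 258 microRNA genes, with the range of the 3 thresholds in grey and lines at the class limits of 40, 50 and 60%. Levels are higher at higher G and C. Between 40 and 50% the lymphoid genes (6 of 7, mostly miR-181 genes) lie above the threshold. Genes of other tissues (2 of 38 above, many of the 38 from the Dlk1-Dio3 locus) lie mostly below it.

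On no tissue list were 159 genes, of which 62 passed. They supplied several of the 10 highest levels among microRNA genes, namely Mir692-1 at 10.10 ± 0.06, Mir346 at 9.55 ± 0.08, Mir598 at 9.50 ± 0.07, Mir7-1 at 9.35 ± 0.46, Mir680-3 at 9.26 ± 0.15 and Mir505 at 8.94 ± 0.14 (SD, n = 3). Mir692-1 has a hairpin of 62.4% G and C and Mir7-1 one of 41.7%. Other copies of Mir692 share a probe set with the ferritin gene Ftl1 in the annotation, so that the signal of Mir692-1 is uncertain.

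Some mature strands are made from several loci. Among 22 groups of measured loci with an identical mature strand, all loci passed in 9, none in 9, and some but not others in 4. Mir128-1 and Mir128-2 both passed, as did Mir16-1 and Mir16-2, and Mir7-1 and Mir7-2. In the mixed groups, Mir103-2 passed at 7.44 and Mir103-1 did not at 5.34, and Mir199a-1 passed at 7.69 where Mir199b did not at 4.08.

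Clusters were formed from microRNA genes on the same strand whose neighbours lay at most 10 kb apart. This gave 40 clusters with 130 genes, 11 of them with at least 3. The largest, in the imprinted Dlk1-Dio3 locus, held 29 measured genes, of which 4 passed, with levels from 2.47 to 8.63 and G and C shares from 29.1% to 62.0%. A second cluster of that locus, from Mir337 to Mir136, passed in 5 of 7 cases. The cluster of Mir23a, Mir27a and Mir24-2 passed in 3 of 3 cases, with levels from 6.41 to 7.54. The Mir302 and Mir367 cluster passed in 0 of 5, and that of Mir500, Mir501, Mir362, Mir188 and Mir532, inside Clcn5, in 1 of 5 (Mir188).

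Many microRNAs are cut from the transcript of a host gene. Of the 258 genes with a hairpin, 90 lay within 71 measured genes known to have the same strand. Genes for which the reference used here gave no strand, such as Smc4, were not used as hosts. Mir15b and Mir16-2 are therefore not in these counts. Where the host was above background, 23 of 56 microRNA genes passed, 41.1%, and where it was not, 9 of 34 passed, 26.5%. Over all 296 microRNA genes 37.2% passed, which is near the first of these shares. The median hairpin G and C share was 50.8% in the first set and 47.6% in the second. Across the 90 pairs, host and microRNA levels had a Pearson's r of 0.38 and a Spearman's rho of 0.37. These are pairs of genes on the same arrays, and 1 host can hold several of the microRNA genes.

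Hosts with the highest levels were Hnrnpk (12.91 ± 0.14), which binds RNA and holds Mir7-1, and the ATP synthase gene Atp5b (12.77 ± 0.09), which holds Mir677 (8.14 ± 0.29). Arpp21, abundant in immature thymocytes, was at 11.12 ± 0.08 and its Mir128-2 at 6.87 ± 0.47. Wdr82 was at 10.88 ± 0.21 and its Mirlet7g did not pass, at 5.70 ± 0.20 (SD, n = 3). Mcm7 was at 10.79 ± 0.07, with Mir106b and Mir25 as given above.

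At the low end, Hoatz read 3.27 ± 0.11 with Mir34b at 5.10 and Mir34c at 3.83, both below background. Dleu2 read 3.01 ± 0.69, at 3.77, 2.43 and 2.82 in mice 92, 103 and 106, while Mir16-1 inside it passed in each mouse. Rian, the host of Mir341, was likewise below background at 4.47 ± 0.26 (SD, n = 3).

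**Figure D4:**
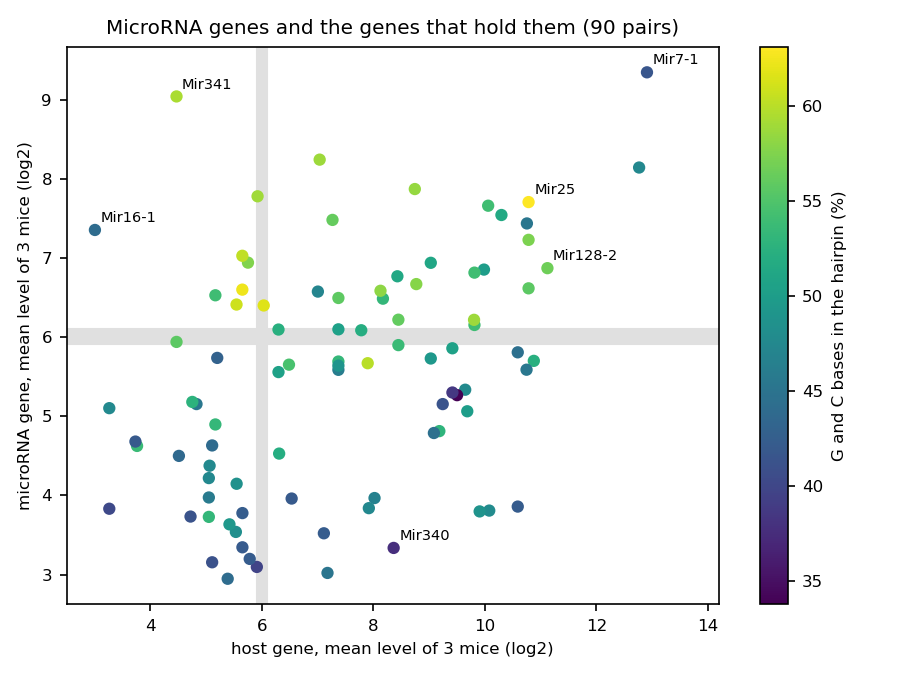
Mean log2 level over 3 mice of 90 microRNA genes against that of the gene that holds them on the same strand, coloured by the share of G and C bases in the hairpin, with the range of the thresholds in grey. Of 56 microRNA genes in a host above background 23 passed, 41.1% against 37.2% of all 296 microRNA genes. Mir341 and Mir16-1 passed within hosts below background.

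Differences between the mice were small for most of the 296 microRNA genes. Their median SD over the 3 mice was 0.15, against 0.14 for all named genes and 0.15 for the receptor genes. Of the 296, 172 were above background in no mouse, so that this median says little about the genes that passed. Among the 124 microRNA genes that passed in any mouse, limma called 0 as having a spread beyond that of genes of like level. The limit was a Benjamini-Hochberg adjusted p under 0.05 over 13314 genes, and 30 of all genes tested, 0.225%, were called. With 3 arrays, a spread that was not called cannot be taken as absent. At an unadjusted p under 0.05 limma found 13 of the 124, against 4.84% of all genes tested. These p-values measure only the spread between 3 samples, which may be partly technical.

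Mir142 came nearest to the threshold (adjusted p = 0.0946, limma). Between mice 103 and 106 alone it passed (adjusted p = 1.88e-08, limma), a difference of 1.29 on the log2 scale. With 2 arrays, limma set this difference against a spread taken wholly from genes of like level (an infinite prior df), both here and without mouse 106. With a robust prior over all 3 mice its adjusted p was 0.0292 (limma). Without mouse 106 Mir142 did not pass (adjusted p = 0.785, limma) and Mir15b did (adjusted p = 0.0211). Over all of the settings its adjusted p lay between 1.88e-08 and 0.785.

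The other genes with the smallest p-values were Mir15b, Mir7-1, Mir1839, Mir128-2, Mirlet7f-1, Mir680-1 and Mir16-2, with adjusted p from 0.336 to 0.863 (limma). Mir7-1 was at 9.86, 9.21 and 8.97 in mice 92, 103 and 106, and its host Hnrnpk at 13.04, 12.76 and 12.94. Mir128-2 was at 6.34, 7.21 and 7.07, lowest in mouse 92, whereas Arpp21 was at 11.21, 11.04 and 11.13, highest there. Mir1839 was at 7.82, 6.88 and 7.38. Of the 8 genes, 6 were lowest in mouse 103.

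The order of the mice over all microRNA genes was different. Of the 124 genes, 69 were lowest in mouse 92, 55.6% against 35.1% of all genes tested, and 68 were highest in mouse 103, 54.8% against 39.1%. Receptor genes, which set the background, had 43.5% lowest in mouse 92 and 51.9% highest in mouse 103. Only 29 of the 124, 23.4%, were lowest in mouse 103, against 28.3% of all genes tested, and 26 were lowest in mouse 106, against 36.6%.

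Against this order, 12 of the 124 microRNA genes were at least 0.3 lower on the log2 scale in mouse 103 than in either other mouse, 9.68% against 2.34% of all genes tested. This limit was chosen after the values were seen. The 12 were Mir142, Mir15b, Mirlet7f-1, Mir1839, Mir680-1, Mir16-2, Mir687, Mirlet7d, Mir677, Mir680-2, Mir181b-1 and Mir15a. Counted over genes above background on at least 1 array, the 12 held 2 of 10 lymphoid and 2 of 4 let-7 genes. They also held 3 of 6 genes of the miR-15 and miR-16 list and 0 of 29 genes of other tissues. Where 2.34% of all genes tested showed this gap, 0 of 29 does not set the genes of other tissues apart.

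All 3 microRNA genes that passed with under 40% G and C in the hairpin, Mir16-2, Mir1839 and Mir687, were among the 12. So were Mir680-2 with 60.9% and Mir680-1 with 57.8%. By the same measure 8 of the 124 genes, 6.45%, were lower in mouse 92 (4.14% of all genes tested) and 0 were lower in mouse 106 (2.89%). Small nucleolar RNA genes, another class of short RNA, were at least 0.3 lower in mouse 103 in 9 of 50 cases, 18%, and their median deviation in that mouse was -0.09, where that of the microRNA genes was 0.08. In mice 92 and 106 the share of these genes at least 0.3 lower was 6% and 8%. Snord14e, with the largest shortfall in mouse 103, was at 9.79, 8.74 and 10.45. Of the 50 genes, 13 were instead highest in mouse 103, among them Snora44 at 9.56, 10.15 and 8.95. The part of short RNA recovery or array scaling in these differences was not tested.

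**Figure D5:**
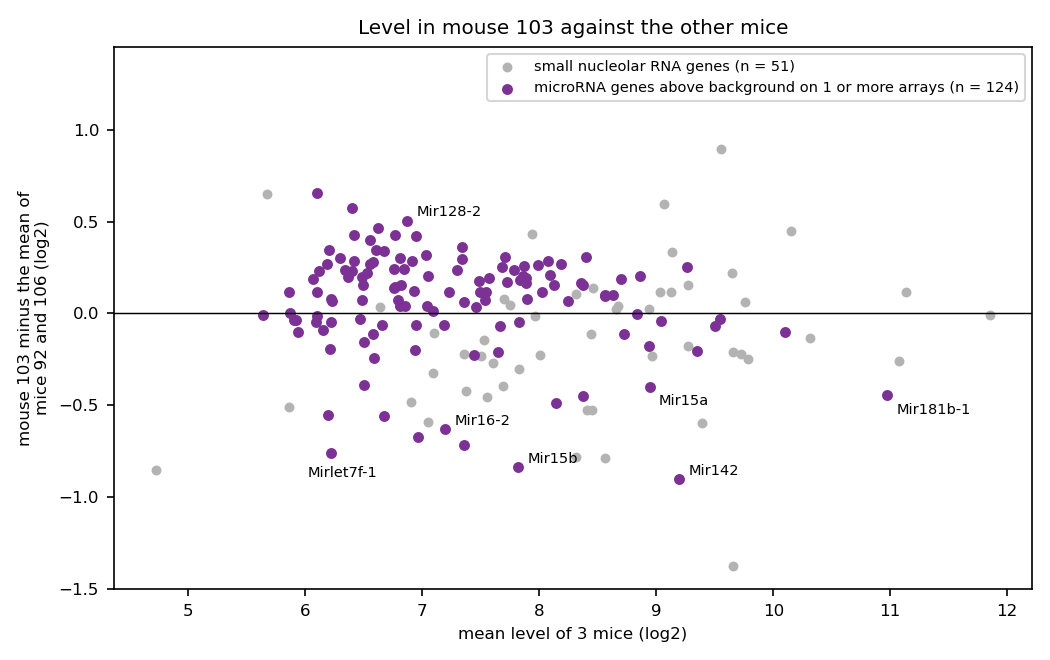
Log2 level in mouse 103 minus the mean of mice 92 and 106, against the mean level of the 3 mice, for 124 microRNA genes that passed in any mouse and 51 small nucleolar RNA genes. Most microRNA genes lie above 0, while Mir142, Mir15b, Mir16-2, Mirlet7f-1, Mir15a and Mir181b-1 lie below -0.3.

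Of 10 genes of the microRNA pathway, 9 were above background in each mouse, where 61.8% of all named genes were. The nuclear enzyme complex had Drosha at 9.02 ± 0.17 and Dgcr8 at 9.78 ± 0.16, the exporter Xpo5 was at 9.42 ± 0.04 and Dicer1 at 9.99 ± 0.04. Among the Argonaute genes Ago2 was at 10.02 ± 0.19, Ago1 at 9.86 ± 0.10 and Ago3 at 8.12 ± 0.08, while Ago4 was below background at 4.41 ± 0.02 (SD, n = 3). Their adjusted p for variation between mice was at least 0.996 in each of the 9 (limma).

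Some microRNA genes lay next to the threshold. The mean of the 3 thresholds was 6.01, and 7 microRNA genes had a mean level within 0.1 of it. Just inside, Mir497 passed at 5.93, 6.19 and 6.07 in mice 92, 103 and 106. Just outside, Mir370 was at 5.90, 5.87 and 6.05 and Mir146b at 5.94, 5.90 and 5.93, and neither passed on all 3 arrays. Mir331 (6.09 ± 0.20) and Mir449c (6.10 ± 0.38) had means over the mean threshold but each passed on only 1 array.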

How the data were processed

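The deposited table holds log2 levels of 35557 probe sets for 3 arrays; the log2 scale was inferred from the values. Affymetrix Expression Console made them, per the submitters' processing notes. How the authors corrected background and scaled the arrays to each other is not stated in the sources used here. Probe sets with a single symbol in the platform annotation (21789) were averaged per gene. A further 61 probe sets that name a microRNA together with other genes were not members. List symbols were matched through RefSeq names (GRCm38.p6), from which hairpins, mature strands and host genes also came.

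The spread over the mice was examined in limma 3.58.1 (R 4.3.3) by an intercept fit, eBayes with a trend on level, and an upper-tail F test of each gene's variance over its prior, adjusted over all 13314 genes above background on at least 1 array. The test was checked on simulated data. The number of arrays, 3, limits the precision. Levels of different probe sets are not on a common scale. Genes named were members of the blood and miR-17-92 lists, the highest and lowest levels, the leading genes per other list, the smallest p-values, genes next to the threshold, hosts at both ends and large clusters. The members, lists and tests were chosen with earlier results of these data known.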

Additional observations from a re-analysis of the deposited data

How the results depend on the processing

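No paired analysis was possible because there is only 1 group. With the 99th percentile of the receptor genes as background, 62 microRNA genes passed, 7 of the lymphoid list and 13 of other tissues; at 40 to under 50% hairpin G and C these counts were 3 and 0. With the 95th percentile of the microRNA genes of other tissues as background, which holds few of those genes by construction, 24 microRNA genes passed, 5 lymphoid genes and 5 genes of other tissues, and at 40 to under 50% 3 and 0. Quantile normalisation, centring, the probe set with the highest mean, a pass on at least 1 array and leaving out any mouse kept these counts within 1.5 times. The count of microRNA genes that limma called varying was 0, and 1 (Mir142) with a robust prior; it ranged from 0 to 1 when each mouse was left out (Mir142 without mouse 92, Mir15b without mouse 106). Of the 12 genes lower in mouse 103, 10 kept the gap of 0.3 after quantile normalisation (not Mir15a and Mir181b-1). The alternatives for hairpin composition and for mouse 103 were added after seeing the data.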

Other observations

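Probe sets that name a microRNA together with another gene were left out of the counts. Of these 61, 20 were above background in each mouse, where 61.8% of all named genes were. The 61 are not separate measurements. Among them are 22 of the Mir467 or Mir669 families, which repeat the same values within each family and were below background. Several of the 20 name the ribosomal protein gene Rpl37a or Ftl1. The probe set of Mir92-1, the last gene of the Mir17 cluster, also names the host transcript Mir17hg, and was at 7.33, 7.00 and 7.29 in mice 92, 103 and 106. The 2 that pair Mirlet7b and Mirlet7c-2 with Lncppara were at 7.13 ± 0.21 and 7.08 ± 0.23 (SD, n = 3). Of those that pair with Aopep, Mir23b was at 7.62 ± 0.08 and Mir27b at 6.66 ± 0.27, above background, and Mir24-1 at 4.60 ± 0.17, below it. Mir29b-2 and Mir29c, paired with a noncoding RNA gene, were below background at 3.55 ± 0.15 and 5.05 ± 0.12. Mir1291, which overlaps the small nucleolar RNA gene Snora34, was at 7.94, 7.37 and 8.29, lowest in mouse 103. For these probe sets the signal of the microRNA and that of its partner cannot be told apart.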
